A study of Mus musculus with 6 samples.

Results

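The 38 genes described here encode the adhesion molecules, junction plaques, polarity proteins, surface proteases and transcription and splicing regulators that epithelial cells share. They were chosen by name as a module of epithelial adhesion and junction genes, with earlier results of these data known. Of them, 37 had a probe on the array, out of 27343 genes and identifiers with a probe. Grhl3 was not analysed here. The 37 genes were read by 65 probes, all kept whatever their brightness, and values are those of the brightest probe of a gene unless another probe is named.

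The series asks which genes Gadd45a, a stress-inducible regulator of growth arrest and DNA repair, controls while fibroblasts are reprogrammed. Mouse embryonic fibroblasts (MEFs) were infected with viruses carrying SKO together with Gadd45a (labelled Ga), with G39A, described in the design as a negative mutant of Gadd45a, or with the control Flag. They were grown for 6 days in medium with serum and LIF, and RNA of day 8 was hybridised to Agilent 1-colour arrays, with 2 arrays a group, numbered replicate 1 and replicate 2. SKO was given to every culture, the Flag controls included. The labels do not spell it out, but reprogramming cocktails of that name commonly mean Sox2, Klf4 and Oct4. They also do not name the promoter of the viral genes, and no label states that the 2 replicates were independent cultures, so p-values here cover the array-to-array spread alone.

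The arrays fell into 2 sets that followed the replicate number. Arrays with 1 replicate number had a correlation of 0.983 to 0.991, the 2 arrays of a group 0.945 to 0.949, and between 57.0% and 62.9% of the 43379 spots of an array were well above background by the scanner software's mark. Pou5f1, the gene of Oct4, gave 4.22, 4.40 and 3.57 on the Gadd45a, G39A and Flag replicate 2 arrays, all not well above background, against 5153, 6363 and 3851 on the replicate 1 arrays. If the O of SKO is a Pou5f1 that this probe detects, the replicate 2 arrays go against their label. Sox2, however, was well above background on the Flag replicate 2 array alone. If the S is a Sox2 that its probe detects, the replicate 1 arrays go against their label too. Klf4 was not examined, and whether these probes detect the viral genes was not tested. Each direction below is therefore that of the arrays labelled replicate 2 against those labelled replicate 1. The 3 replicate 2 arrays lay on 1 slide and the replicate 1 arrays on another 2, so a slide effect and the difference between the replicate numbers cannot be told apart. Gadd45a itself gave 1870.1 in Gadd45a, 2147 in G39A and 2309 in Flag on the replicate 2 arrays, and 560.1, 1395 and 1017 in the same order on the replicate 1 arrays. Its probe starts at base 878 of the transcript and may lie outside the viral insert, so it does not check the labels.

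Epithelial cells hold together through adherens junctions, built on cadherins, desmosomes, which anchor keratin filaments, and tight junctions, which seal the space between cells with claudins and occludin. Fibroblasts do not form epithelial sheets and keep most of these genes low. Factors of the ZEB, SNAI and TWIST families repress many of the genes in mesenchymal cells, whereas grainyhead-like, OVOL and epithelial ETS factors sustain them. A switch from the mesenchymal to the epithelial programme is known as an early step of fibroblast reprogramming.

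Between the replicate numbers, 25 of the 37 genes fell in replicate 2, Cdh3 and Pkp2 rose, and 10 did not pass the test, which was limma with the group as a covariate and Benjamini-Hochberg adjustment over all 41096 probes. Over all 27321 genes tested, 13.2% were called lower and 13.5% higher. The median log2 difference of the 37 genes was -2.32, with a range of -7.27 to 5.82, and the median over all genes was -0.12. The median of the module was -2.13 on the Gadd45a arrays, -2.35 on the G39A arrays and -2.45 on the Flag arrays. In 31 of the 37 genes replicate 2 lay below replicate 1 in all 3 groups, as in 28.5% of all genes. In 26 of the 37 all replicate 2 arrays lay below all replicate 1 arrays, as in 20.7% of all genes. The 31 genes include Cgn, Esrp1, Grhl2, Rab25, Elf3 and Ap1m2, and the 26 include Grhl2 and Ap1m2. These genes were not well above background on any array, so their direction rests on dim signals. The shares over all genes include such genes too. The signal summed over the 37 genes was 8397 to 11960 on the replicate 2 arrays and 46025 to 52716 on the replicate 1 arrays. Much of these sums came from Cd24a and F11r, the brightest of the 37 genes on every array. Cd24a gave 3222 to 4532 in replicate 2 and 17159 to 21798 in replicate 1, and F11r 1767 to 3924 and 9814 to 10314. RNA came from whole cultures, so fewer cells that use these genes and less RNA of them per cell cannot be told apart.

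Only 12 of the 37 genes were well above background on all 6 arrays, and 9 were not well above background on any (31.8% of all genes), so their values give no level. All 3 replicate 1 arrays detected 24 of the genes and all 3 replicate 2 arrays 13. For the counts of 12, 24 and 13 the share over all genes was not computed. On a single array 56.5% to 62.5% of all probes were well above background. Cdh1, Epcam, Dsg2, Dsc2, Ocln, Tjp3, Marveld2 and Ehf were detected on every replicate 1 array and on 0 replicate 2 arrays, a pattern that 1.83% of all genes showed. Cdh3 had the opposite pattern, which 1.22% of all genes showed. Where a gene was dim on all 3 arrays of a replicate number its ratio is a bound, printed as "at least", and its adjusted p rests partly on surrogate values that the software gives to dim spots. Of the 25 genes called lower, Grhl2 and Ap1m2 were dim on all 6 arrays, which leaves 23 with signal above background on at least 1 array.

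The sizes of the differences depend on the background correction. With normexp background correction and quantile normalization all 25 called genes with a signal above background kept their direction and call. Of the 15 with a measured ratio, 9 then had a ratio over 1.5 times smaller than the one given below, with log2 differences of -5.59 for Pkp1, -2.69 for Cldn3, -2.28 for Pkp3, -2.20 for Evpl, -2.14 for St14, -1.63 for Spint1, -1.35 for Cldn7, -0.97 for Ovol2 and -0.84 for Ppl. All 10 ratios printed below as a bound were under that bound in this setting, for example 21.8-fold for Ehf, 8.95-fold for Epcam, 6.68-fold for Cdh1 and 9.07-fold for Cdh3, so the bounds hold for the scaling used here alone. With the mean of a gene's probes the log2 difference was -3.08 for Dsp, -3.57 for Spint1, -2.64 for Marveld2, -2.67 for Ocln and -1.43 for Dsg2, and the last 2 were under their bounds.

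**Figure D1:**
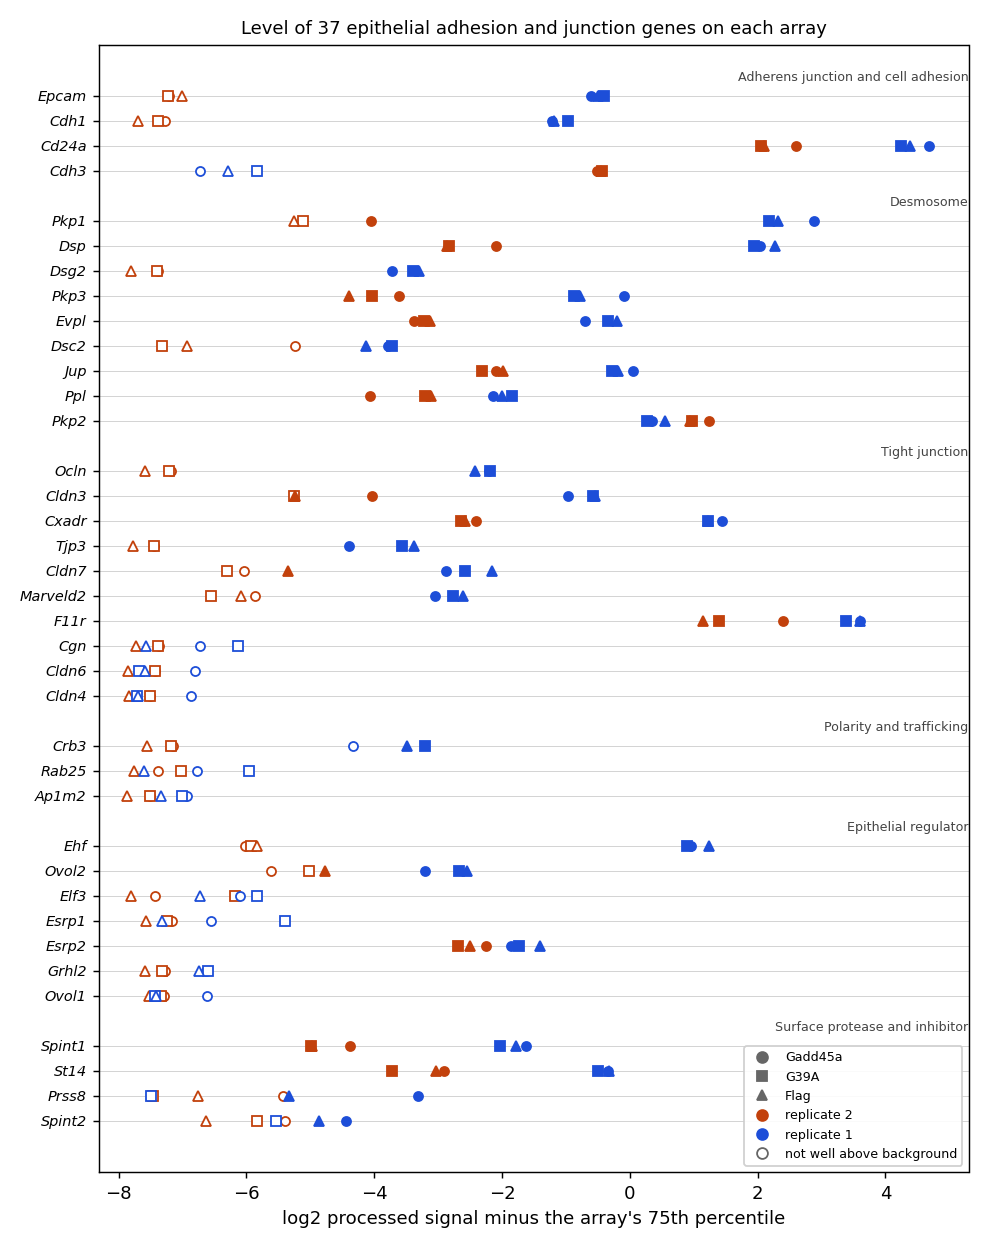
Level of each of the 37 genes on the 6 arrays, as log2 processed signal minus the 75th percentile of its array. Colour gives the replicate number, shape the group, and open symbols are not well above background. Cdh1, Epcam and Ehf lie far lower on the replicate 2 arrays than on the replicate 1 arrays, and Cdh3 lies far higher there.

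The 4 adhesion molecules all changed, and the cadherins moved in opposite directions. Cdh1, the gene of E-cadherin, the adherens junction cadherin of epithelia, gave a signal of 4.84, 4.68 and 3.85 on the Gadd45a, G39A and Flag replicate 2 arrays, against 366, 482 and 359.7 on the replicate 1 arrays. It was at least 18.2-fold lower in replicate 2 (log2 difference -6.32, SE 0.14, adjusted p = 0.00136 by limma). Cdh3, which encodes P-cadherin and lies next to Cdh1 on chromosome 8 of the mouse, gave 524, 577 and 583 in replicate 2, against 8.03, 16.5 and 10.5 in replicate 1. All 3 replicate 1 values were not well above background, and Cdh3 was at least 25.8-fold higher in replicate 2 (log2 difference 5.82, SE 0.20, adjusted p = 0.00153). The probes lie at chr8:109193812-109193871 for Cdh1 and chr8:109079493-109079553 for Cdh3 (mm9, plus strand).

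Epcam, an epithelial surface adhesion molecule, gave 5.02, 5.2 and 6.19 in replicate 2, against 559, 715 and 583 in replicate 1. It was at least 28.0-fold lower in replicate 2, and no replicate 2 array detected it. Cd24a, a small glycoprotein of the surface that is not limited to epithelia, was detected on every array, at 4532, 3222 and 3427 in replicate 2, against 21798, 17895 and 17159 in replicate 1. Cd24a fell 4.55-fold (log2 difference -2.18, SE 0.11, adjusted p = 0.00222). Cdh2, the gene of N-cadherin, the usual cadherin of fibroblasts, gave 577, 561 and 667 in replicate 2, against 663, 716 and 615 in replicate 1. The Cdh2 values of the sets overlapped, and the difference of 0.02 (SE 0.11, adjusted p = 0.873) did not pass the test.

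**Figure D2:**
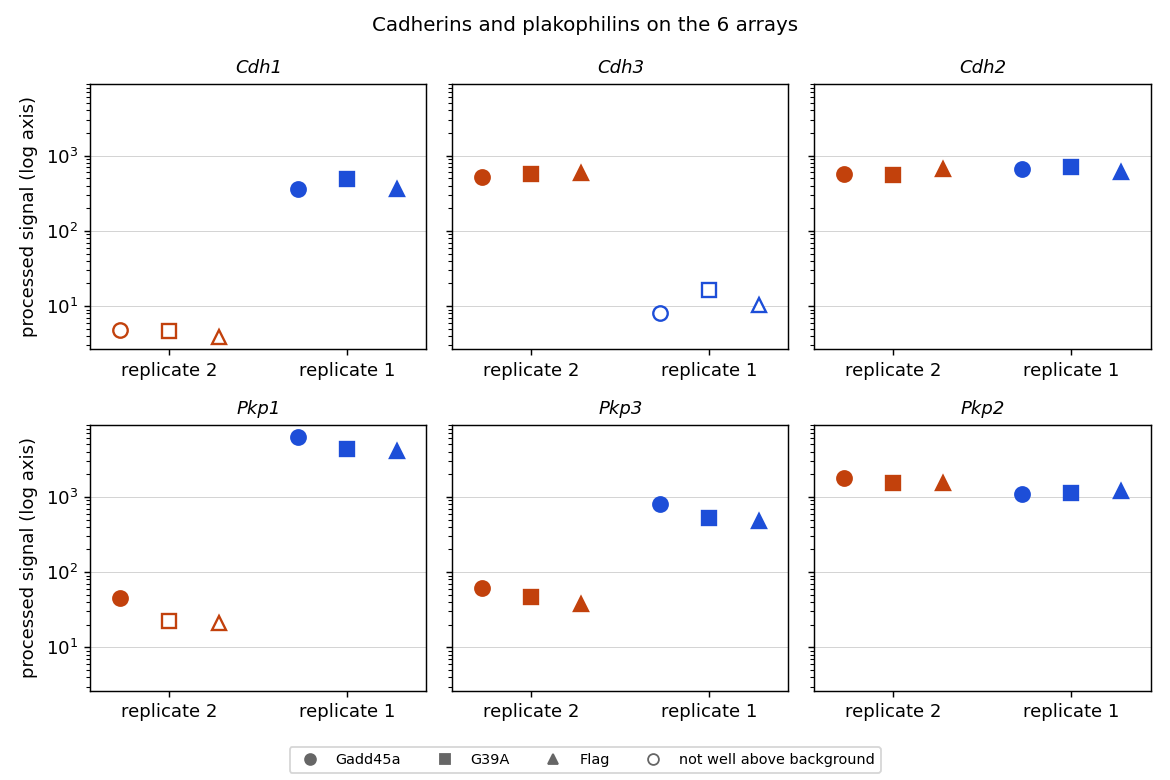
Processed signal of 3 cadherins (upper row) and 3 plakophilins (lower row) on a log axis, replicate 2 to the left of replicate 1, with a symbol for each group and open symbols for spots not well above background. Cdh1, Pkp1 and Pkp3 are lower in replicate 2, Cdh3 and Pkp2 are higher there, and the Cdh2 values overlap.

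Of the 9 desmosome genes, 8 fell in replicate 2 and 1 rose. The plakophilins, armadillo proteins of the desmosomal plaque, differed among themselves. Pkp1 gave 44.9, 22.4 and 20.8 in replicate 2, with the Gadd45a array alone well above background, against 6258, 4269.7 and 4099 in replicate 1. Its measured difference was 154-fold (log2 -7.27, SE 0.17, adjusted p = 0.00137). Pkp3 was detected on every array, at 60.8, 47.3 and 38.1 in replicate 2, against 795, 517 and 480.3 in replicate 1, and fell 10.8-fold (log2 -3.44, SE 0.14, adjusted p = 0.00173). Pkp2, a plakophilin that is also found outside stratified epithelia, gave 1756, 1534 and 1532 in replicate 2, against 1076, 1141 and 1202 in replicate 1. It rose 1.59-fold (log2 0.66, SE 0.15, adjusted p = 0.0479). The call of Pkp2 ended when the probes of a gene were averaged (adjusted p = 0.0518) and without any 1 array (0.109 to 0.174).

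Dsp, the gene of desmoplakin, which ties the plaque to keratin filaments, gave 175, 109 and 109 in replicate 2, against 3491, 3646 and 3968 in replicate 1. It fell 25.7-fold (log2 -4.68, SE 0.24, adjusted p = 0.00222). Of its other 3 probes, the one at base 8879 of the transcript also fell (log2 -4.91) and the one at base 6803, dim on all replicate 2 arrays, was at least 1.65-fold lower, whereas the dim probe at base 5665 differed by 0.15 (adjusted p = 0.744). The desmosomal cadherins had signals near background. Dsg2, of desmoglein 2, gave 4.45, 4.59 and 3.58 in replicate 2, against 64.3, 89.8 and 82.9 in replicate 1, and was at least 3.56-fold lower, but its dim probe at base 3763 differed by 0.23 (adjusted p = 0.668). The Dsg2 probes at base 3878 (log2 -1.78, adjusted p = 0.194) and base 3396 (log2 -0.19, adjusted p = 0.513) were not called either. The probe at base 487 was called lower (log2 -1.33, adjusted p = 0.0166) but was dim on all arrays. Dsc2, of desmocollin 2, gave 19.8, 4.87 and 6.52, against 61.6, 71.8 and 46.7, and was at least 2.69-fold lower (adjusted p = 0.0289), a call that ended without a G39A array (adjusted p = 0.0606) or a Flag array (0.144). Its probes at base 2706 (log2 -4.05, SE 0.19, adjusted p = 0.00197) and base 3318 (log2 -2.70, SE 0.10, adjusted p = 0.00163) were also called lower. Both were dim on all replicate 2 arrays, so these differences rest partly on surrogate values.

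The remaining plaque genes also fell. Jup, the gene of plakoglobin, which serves desmosomes and adherens junctions alike, gave 175, 156 and 200.5 in replicate 2, against 875, 778 and 725 in replicate 1, and fell 3.99-fold. The plakins Evpl and Ppl, of envoplakin and periplakin, crosslink the desmosome to the cell cortex. Evpl gave 71.6, 83.5 and 91.1 in replicate 2, against 519, 749 and 713 in replicate 1, and fell 7.10-fold. Ppl gave 44.4, 84.3 and 92.2, against 193, 263 and 204, and fell 2.77-fold (adjusted p = 0.0163), a call that ended without a G39A array (adjusted p = 0.0572) or a Flag array (0.0681). Among the other desmosome genes outside the module, 2 of 6 fell, Perp (log2 -2.12, SE 0.14, adjusted p = 0.00354) and Pkp4 (log2 -1.28, SE 0.11, adjusted p = 0.00566). Dsg1a, Dsg3, Dsc1 and Dsc3, whose proteins belong to stratified epithelia, were not well above background on any array.

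Of the 10 tight junction genes, 7 fell in replicate 2, 0 rose, and Cldn4, Cldn6 and Cgn were dim on all 6 arrays. Ocln, of occludin, gave 5.12, 5.27 and 4.14 in replicate 2, against 184, 208 and 153 in replicate 1, and was at least 8.21-fold lower (log2 -5.06, SE 0.11, adjusted p = 0.00136). Marveld2, of tricellulin, the protein of junctions where cells meet at a corner, gave 12.7, 8.31 and 11.7, against 103, 138 and 134, and was at least 5.65-fold lower. Tjp3, of the scaffold ZO-3, gave 4.26, 4.46 and 3.66, against 40.5, 80.2 and 79.0, and was at least 2.89-fold lower. No replicate 2 array detected these 3 genes.

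The claudins, which form the paracellular barrier, did not all have a signal. Cldn3 gave 45.2, 20.3 and 21.1 in replicate 2, with the G39A array not well above background, against 434, 634 and 563 in replicate 1. It fell 17.8-fold (log2 -4.15, SE 0.40, adjusted p = 0.00748), and the adjusted p was 0.0639 without a Flag array. Cldn7 gave 11.4, 9.79 and 19.5, with the Flag array alone well above background, against 115, 158 and 185, and fell 10.3-fold (log2 -3.36, SE 0.17, adjusted p = 0.00219). Cldn4 and Cldn6, and Cgn, of the scaffold cingulin, stayed between 3.45 and 13.5 on the 6 arrays, so nothing can be said of their change.

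The immunoglobulin-type adhesion proteins of the tight junction were detected on every array. F11r, of junctional adhesion molecule A, gave 3924, 2055 and 1767 in replicate 2, against 10314, 9814 and 9915 in replicate 1, and fell 3.67-fold (log2 -1.88, SE 0.28, adjusted p = 0.0196). The F11r call ended without a G39A array (adjusted p = 0.0709) or a Flag array (0.0904). Cxadr, the coxsackievirus and adenovirus receptor, gave 141, 124 and 134, against 2294, 2208 and 1922, and fell 14.3-fold (log2 -3.84, SE 0.10, adjusted p = 0.00144). Its probe at base 1223 of the transcript also fell (log2 -4.04), and that at base 390 was at least 3.38-fold lower. The probe at base 390 of the transcript (chr16:78329218-78329277, mm9, plus strand) is shown because its signal was dim in replicate 2, at 5.25, 5.18 and 4.30, against 71.1, 98.0 and 58.6 in replicate 1:
Cxadr probe: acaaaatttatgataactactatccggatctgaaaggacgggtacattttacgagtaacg

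Of 21 tight junction genes outside the module, 9 fell, 0 rose and 12 did not pass the test, with a median log2 difference of -0.22. Cldn11, a claudin of myelin and of Sertoli cells, gave 11.7, 13.6 and 15.1 in replicate 2, against 2534, 3360.4 and 2325 in replicate 1, at least 123-fold lower. Jam2, a junctional adhesion molecule known from endothelium, fell 10.3-fold (log2 -3.37, SE 0.11, adjusted p = 0.00152). Lsr, of the lipoprotein receptor of tricellular junctions, fell 3.52-fold. These genes are not limited to the epithelia named in the module.

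RefSeq promoter windows (assembly GRCm38.p6, 250 bases before to 50 after the start) matched 19 of the 37 genes with 24 windows. They were searched on either strand for CAGGTG, the E-box that ZEB and SNAI proteins can bind. It was found in 19 of the 24 windows (79.2%), belonging to 15 of the 19 genes, and in 20.2% of all 32851 windows. The broader E-box CANNTG, which contains CAGGTG, was in 83.3% of the windows of the module and in 72.3% of all windows. The grainyhead motif AACCNGTT was in 2 windows, those of Cgn and Rab25 (8.33%), and in 2.09% of all windows. The genes with CAGGTG include Ap1m2, Cldn4, Cldn6, Elf3 and Rab25, which were dim on all 6 arrays, and it was not found in the windows of Cgn, Jup, Ovol2 and Spint1 or in 1 of the 2 windows of Cldn7 (chr11:69964529-69964828). Windows of 1 gene can overlap, and a match describes letters, not a site that is bound. The windows of Epcam, Ocln, Cldn7 and Cldn3, which fell or were lower in replicate 2, and of Cldn4, which was dim throughout, are shown 5′ to 3′ on the strand of the gene, with CAGGTG or its reverse complement CACCTG in capitals. They lie at chr17:87635729-87636028 (plus) for Epcam, chr13:100552449-100552748 (minus) for Ocln, chr11:69965171-69965470 (plus) for Cldn7, chr5:134985964-134986263 (plus) for Cldn3 and chr5:134946885-134947184 (minus) for Cldn4:
Epcam: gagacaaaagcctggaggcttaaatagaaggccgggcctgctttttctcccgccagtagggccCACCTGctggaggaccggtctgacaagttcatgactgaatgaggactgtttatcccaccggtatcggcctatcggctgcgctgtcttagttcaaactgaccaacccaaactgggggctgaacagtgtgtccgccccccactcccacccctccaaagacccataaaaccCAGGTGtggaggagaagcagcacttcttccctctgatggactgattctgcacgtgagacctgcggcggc
Ocln: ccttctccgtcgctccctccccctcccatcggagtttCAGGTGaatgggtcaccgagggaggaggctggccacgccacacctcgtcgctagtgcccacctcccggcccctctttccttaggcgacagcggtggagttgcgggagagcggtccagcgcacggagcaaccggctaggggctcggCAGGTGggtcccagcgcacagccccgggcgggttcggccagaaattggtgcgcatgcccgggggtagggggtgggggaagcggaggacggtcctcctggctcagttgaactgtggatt
Cldn7: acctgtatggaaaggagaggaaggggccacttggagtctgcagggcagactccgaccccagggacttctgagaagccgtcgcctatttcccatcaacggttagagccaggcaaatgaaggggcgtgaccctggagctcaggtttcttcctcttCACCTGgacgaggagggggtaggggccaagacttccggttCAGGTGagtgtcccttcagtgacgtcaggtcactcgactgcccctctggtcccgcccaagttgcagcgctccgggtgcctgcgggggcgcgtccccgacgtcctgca
Cldn3: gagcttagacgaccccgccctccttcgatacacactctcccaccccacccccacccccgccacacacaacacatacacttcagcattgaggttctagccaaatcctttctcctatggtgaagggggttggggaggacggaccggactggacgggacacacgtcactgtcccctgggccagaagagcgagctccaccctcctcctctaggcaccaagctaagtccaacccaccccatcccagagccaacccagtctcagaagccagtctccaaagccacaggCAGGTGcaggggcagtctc
Cldn4: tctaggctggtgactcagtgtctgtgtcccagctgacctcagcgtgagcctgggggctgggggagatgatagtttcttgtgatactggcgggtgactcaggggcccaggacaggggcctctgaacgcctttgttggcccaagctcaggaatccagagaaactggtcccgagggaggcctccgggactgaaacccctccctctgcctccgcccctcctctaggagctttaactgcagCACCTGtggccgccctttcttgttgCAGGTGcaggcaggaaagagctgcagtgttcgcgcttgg

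The repressors of the epithelial state moved the other way. Of 7 genes, 5 rose in replicate 2, 0 fell and 2 did not pass the test, with a median log2 difference of 1.01. Snai1 gave 5939, 5974 and 7158 in replicate 2, against 1292, 1148 and 1146 in replicate 1, and rose 5.97-fold (log2 2.58, SE 0.12, adjusted p = 0.00204). Twist2 gave 8801, 5897 and 6474, against 2025, 1996 and 1851. Snai2 rose 3.98-fold, Zeb1 2.01-fold and Zeb2 1.43-fold (adjusted p = 0.0402). All 7 were well above background on every array, in replicate 1 too.

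Among the 7 epithelial regulators measured, Ehf and Ovol2 fell with signal above background, Esrp2 did not pass the test, and Esrp1, Grhl2, Ovol1 and Elf3 were dim on all arrays. Ehf, an ETS factor of epithelia, gave 11.5, 12.8 and 13.9 in replicate 2, against 1653, 1751 and 1929.6 in replicate 1. It was at least 80.8-fold lower (log2 -6.96, SE 0.12, adjusted p = 0.00136), and its other probes also fell (log2 -6.53 and -6.92). The sequence of the representative probe, which starts at base 586 of the transcript and spans chr2:103114085-103114244 (mm9, minus strand), is shown because Ehf had the greatest bound of the 37 genes:
Ehf probe: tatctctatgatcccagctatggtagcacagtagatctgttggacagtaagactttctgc

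Ovol2, a zinc finger factor that represses mesenchymal genes, gave 15.1, 23.9 and 29.3 in replicate 2, with the Flag array alone well above background, against 91.6, 148 and 139.9 in replicate 1. It fell 5.01-fold (log2 -2.32, SE 0.11, adjusted p = 0.00202). Esrp2, an epithelial splicing regulator, was detected on every array, at 157, 121 and 140.2, against 233, 285 and 308. The difference of -0.81 (SE 0.19, adjusted p = 0.0534) missed the threshold, but Esrp2 was called lower with normexp (0.0465), the filter on dim probes (0.0167), an intensity trend (0.0033), the slide as a random block (0.0215) and no group covariate (0.0174). However, its probe at base 2604 of the transcript, also detected on every array, differed by only -0.31 (SE 0.20, adjusted p = 0.339). The values of that probe overlapped between the replicate numbers. Esrp1, the other epithelial splicing regulator, stayed between 4.20 and 22.4. Grhl2, a grainyhead-like factor, stayed between 4.16 and 9.77, and its called difference of -0.74 (adjusted p = 0.0194) rests on dim signals alone. The zinc finger gene Ovol1 stayed between 4.32 and 8.63 and the ETS gene Elf3 between 3.56 and 16.5.

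The polarity and trafficking genes were near background. Crb3, of an apical polarity protein, gave 5.25, 5.39 and 4.25 in replicate 2, all dim, against 42.4, 102 and 72.8 in replicate 1, with the Gadd45a array dim. It was at least 3.10-fold lower (log2 -3.62, SE 0.31, adjusted p = 0.00561), and the adjusted p was 0.0537 without a Flag array. Ap1m2, of an epithelial clathrin adaptor subunit, and Rab25, of a recycling GTPase, were dim on all arrays, and the called difference of Ap1m2 (-0.53, adjusted p = 0.0348) rests on dim signals. Of 18 adherens junction and polarity partners outside the module, 7 fell, 7 rose and 4 did not pass the test, with a median log2 difference of -0.26. Patj, a scaffold of the Crumbs polarity complex, fell 5.80-fold, and Prkcz, an atypical protein kinase C, fell 2.74-fold. Vcl, of vinculin, which is also a protein of focal adhesions, rose 2.43-fold. Ctnnb1, of β-catenin, gave 11861, 12659 and 13967 in replicate 2, against 12346, 16539 and 12373 in replicate 1 (log2 0.08, SE 0.12, adjusted p = 0.633).

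Of the surface proteases and their inhibitors, St14 and Spint1 fell and Prss8 and Spint2 did not pass the test. St14, of matriptase, gave 98.9, 59.2 and 97.6 in replicate 2, against 671, 671 and 657 in replicate 1, and fell 7.14-fold (log2 -2.84, SE 0.18, adjusted p = 0.00308). Spint1, of a Kunitz inhibitor of matriptase, gave 35.7, 24.5 and 25.5, against 277, 230.5 and 239, and fell 7.83-fold (log2 -2.97, SE 0.14, adjusted p = 0.00189). Protease and inhibitor were lower on the same arrays. Prss8, of prostasin, gave 17.3, 4.40 and 7.36 in replicate 2, all dim, against 85.4, 5.22 and 20.3 in replicate 1, where the G39A array was dim (log2 -1.17, adjusted p = 0.161). Spint2, the related inhibitor, gave 17.7, 13.6 and 8.0, all dim, against 38.9, 20.3 and 28.2 (log2 -1.01, adjusted p = 0.108).

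**Figure D3:**
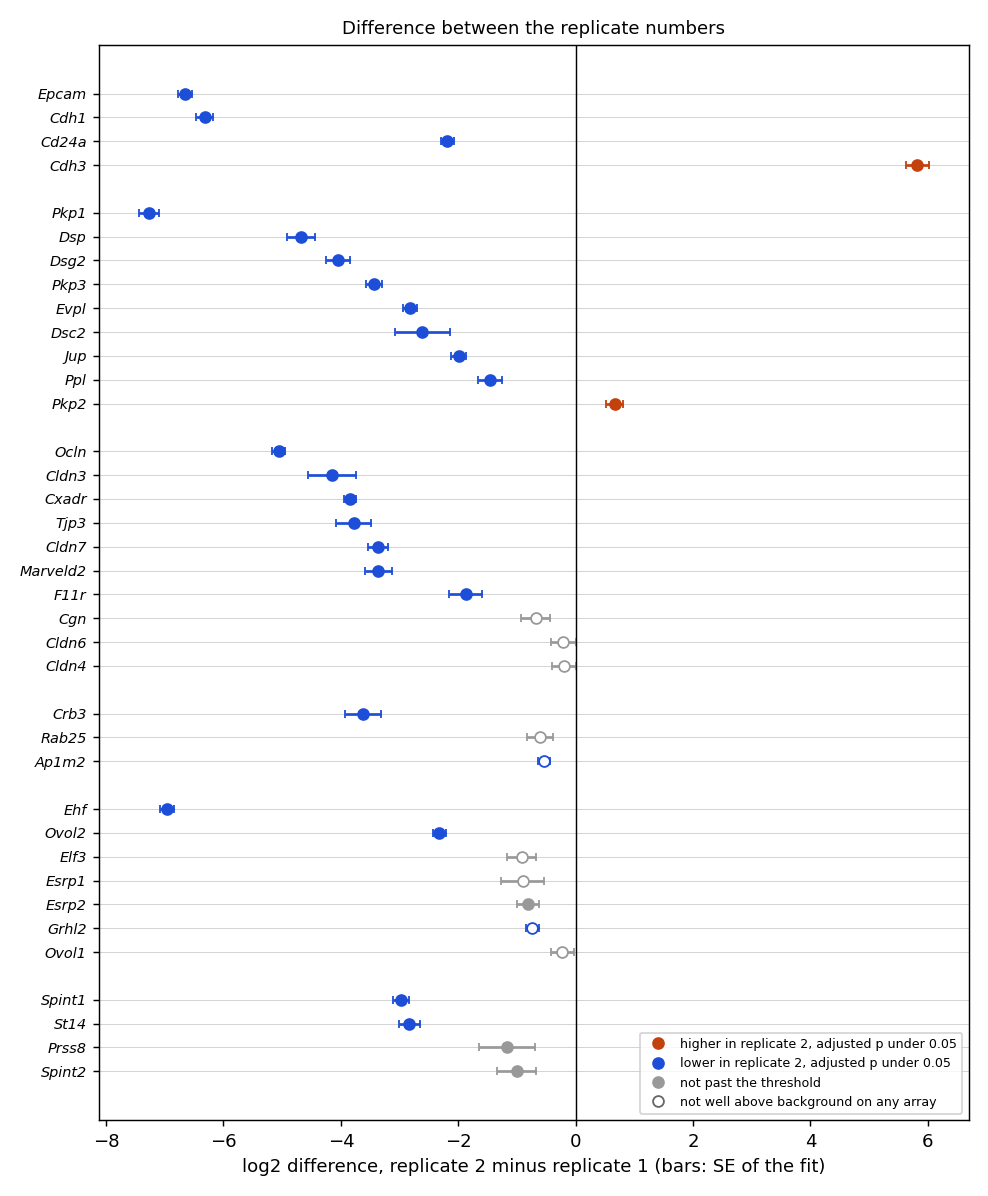
Log2 difference between replicate 2 and replicate 1 for each of the 37 genes, with the SE of the limma fit as bars, coloured by the call at an adjusted p under 0.05. Of the 27 called genes 25 lie below 0, and open symbols mark the 9 genes that were dim on every array.

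Markers of several cell types also differed between the replicate numbers. Of 12 fibroblast markers, 8 rose in replicate 2 and 0 fell, among them Thy1 (log2 2.67, SE 0.10) and Col1a1 (log2 1.31, SE 0.11), and their summed signal was 957610 to 989104 in replicate 2 and 634994 to 801125 in replicate 1. Vim gave 83095, 88583 and 89191 in replicate 2, against 87976, 138073 and 82603 in replicate 1, so the labelled cell type's markers were present on all 6 arrays. Of 8 simple epithelium markers, 5 fell and Krt7 rose (log2 2.83, SE 0.17), with a summed signal of 4752 to 6671, against 43861 to 54203. Krt8, a keratin of simple epithelia, gave 169, 211 and 131, against 2728, 2731 and 2208, and Itgb4, the integrin chain of hemidesmosomes, gave 495, 651 and 677, against 37449, 47335 and 41167. Most of the replicate 1 sum was therefore the signal of Itgb4. The sums of 12 keratinocyte markers lay closer, at 9644 to 10118, against 10403 to 12018, with 4 called lower and 1 higher.

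Of 11 measured pluripotent cell markers, 3 fell (Pou5f1, Zfp42 and Nanog) and 5 were dim on all 6 arrays. Sox2 was called higher, with signal above background on the Flag replicate 2 array alone. The summed signal of the 11 markers was 362 to 424 in replicate 2 and 4433 to 7002 in replicate 1. Most of the replicate 1 sum was the signal of Pou5f1. Of 8 trophoblast markers 2 fell and 0 rose, with sums of 182 to 421, against 1042 to 2944. Of 10 macrophage markers 6 rose and 2 fell, with sums of 5564 to 9458, against 2239 to 2706, while Ptprc, the common leukocyte antigen, was dim on every array. Of 8 endothelial markers 3 fell and 1 rose, with sums of 1422 to 2038, against 2013 to 2246, and the defining genes Pecam1 and Cdh5 were dim on every array. The part of these cell types in the difference of the junction genes was not tested.

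**Figure D4:**
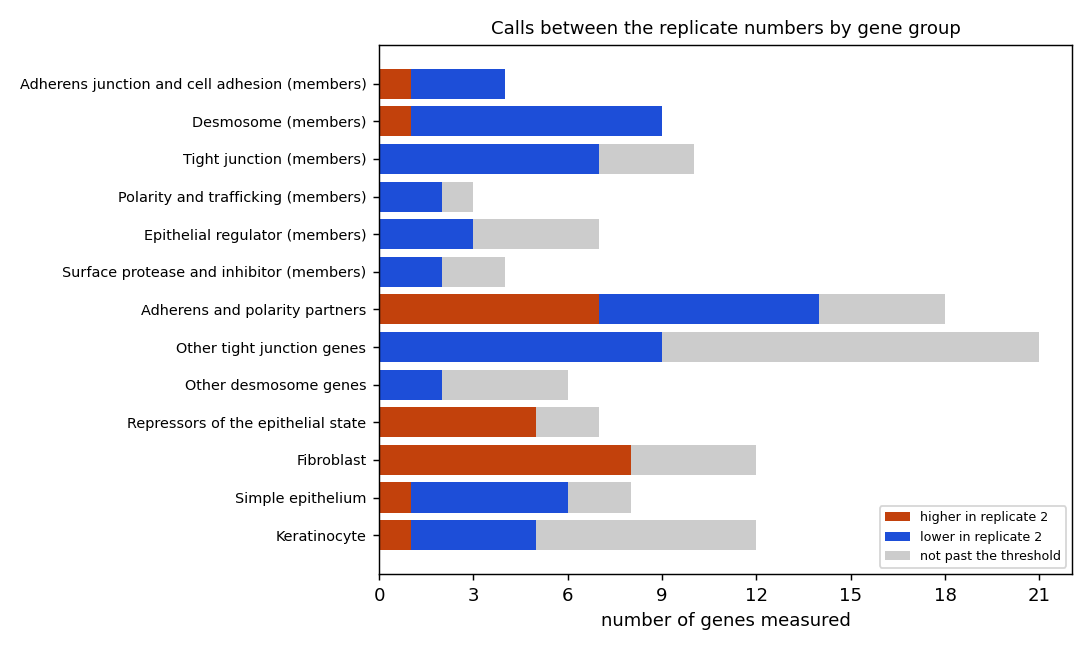
Number of genes called higher, called lower and not past the threshold in replicate 2 against replicate 1, for the 6 roles in the module and for 7 further lists. The desmosome and tight junction members were mostly called lower, and 5 of 7 repressors and 8 of 12 fibroblast markers were called higher with 0 called lower.

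Between the study's groups no gene of the module passed the test. For Gadd45a against Flag, G39A against Flag and Gadd45a against G39A, limma over all 6 arrays called 0 of the 37 genes and 0 of 27321 genes (0.0%) in each comparison. At an unadjusted p under 0.05 it gave 0, 0 and 1 of the 37 genes (Prss8) in the order just named, and 504, 365 and 499 of all genes. A block for the replicate number left the calls at 0 in each comparison, with the lowest adjusted p of the 37 genes at 0.413, 0.984 and 0.590, and 7, 4 and 6 of the 37 genes had an unadjusted p under 0.05, beside 2039, 1202 and 1418 of all 27321 genes. The median difference of the 37 genes was 0.27 for Gadd45a against Flag, 0.02 for G39A against Flag and 0.15 for Gadd45a against G39A. The medians over all genes were 0.06, 0.03 and 0.07. Both sets of medians include genes dim on all 6 arrays. For Gadd45a against Flag the 9 such genes of the module lay between 0.21 (Grhl2) and 0.60 (Cgn). In replicate 1 the faintest signal marked well above background was 35.1 for Gadd45a and 19.3 for Flag, and in replicate 2 it was 20.4 and 17.1. How far dim signals set the median of 0.27 was not tested. The comparisons with Flag share the Flag arrays and are not independent.

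Within a replicate number each difference is between 2 arrays and has no replicate of its own. In replicate 2, 14 of the genes were well above background on both the Gadd45a and the Flag array, of which 10 were higher in Gadd45a and 4 lower, with a median of 0.28. In replicate 1, 26 were, of which 11 were higher and 15 lower, with a median of -0.07. Over all genes detected on both arrays, 51.1% were higher in Gadd45a in replicate 2 and 41.4% in replicate 1. A difference of 2-fold or more was reached by F11r (log2 1.25) and Cldn3 (log2 1.20) in replicate 2, where 1.66% of all genes were so much higher and 1.24% so much lower. In replicate 1 the same genes differed by 0.01 and -0.42, and the genes past 2-fold were Prss8 (log2 2.02) and Tjp3 (log2 -1.01), with 0.598% of all genes so much higher and 0.168% so much lower.

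Some genes are described further that were picked after seeing their values. They had an unadjusted p under 0.05 by limma for Gadd45a minus Flag with the block, and signal above background on at least 1 array. This choice favours genes whose differences in the replicate numbers agree, so their kept direction is not a separate result. The share of all genes that kept a direction in both replicate numbers was not computed. For Gadd45a minus Flag, Pkp3 differed by 0.78 in replicate 2 and 0.68 in replicate 1, a mean of 0.73 (SE 0.17 with the replicate block, adjusted p = 0.413). Cd24a differed by 0.50 and 0.30, and Pkp1 by 1.21 and 0.56, the first of which rests on a Flag array that was dim. Ovol2 was lower in Gadd45a than in Flag, by -0.85 in replicate 2, where the Gadd45a array was dim, and by -0.66 in replicate 1. Cldn7 differed by -0.68 in replicate 2, again with a dim Gadd45a array, and by -0.73 in replicate 1. Prss8 differed by 1.34 in replicate 2, where both arrays were dim, and by 2.02 in replicate 1, a mean of 1.68 (SE 0.58 with the replicate block, adjusted p = 0.413), which was greater than its difference of -1.17 between the replicate numbers. None of these 6 genes passed the test, and for the other 5 each difference was smaller than that of the same gene between the replicate numbers.

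For G39A against Flag the genes lay close together. In replicate 2, 13 genes were detected on both arrays, 5 higher in G39A and 8 lower, within -0.68 and 0.35 on the log2 scale, and 50.3% of all genes were higher. In replicate 1, where these arrays lay on different slides, 25 were, 6 higher and 19 lower, within -0.43 and 0.42, and 41.0% of all genes were higher. None reached 2-fold, whereas 0.773% of all genes were so much higher and 0.273% so much lower in replicate 2, and 0.807% and 0.394% in replicate 1. For Gadd45a against G39A, 10 of 13 genes were higher in Gadd45a in replicate 2 (median 0.43) and 11 of 24 in replicate 1 (median -0.05), beside 50.9% and 53.2% of all genes. None of them reached 2-fold, a size that 0.805% of all genes reached upward and 0.772% downward in replicate 2, and 0.816% and 0.641% in replicate 1.

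**Figure D5:**
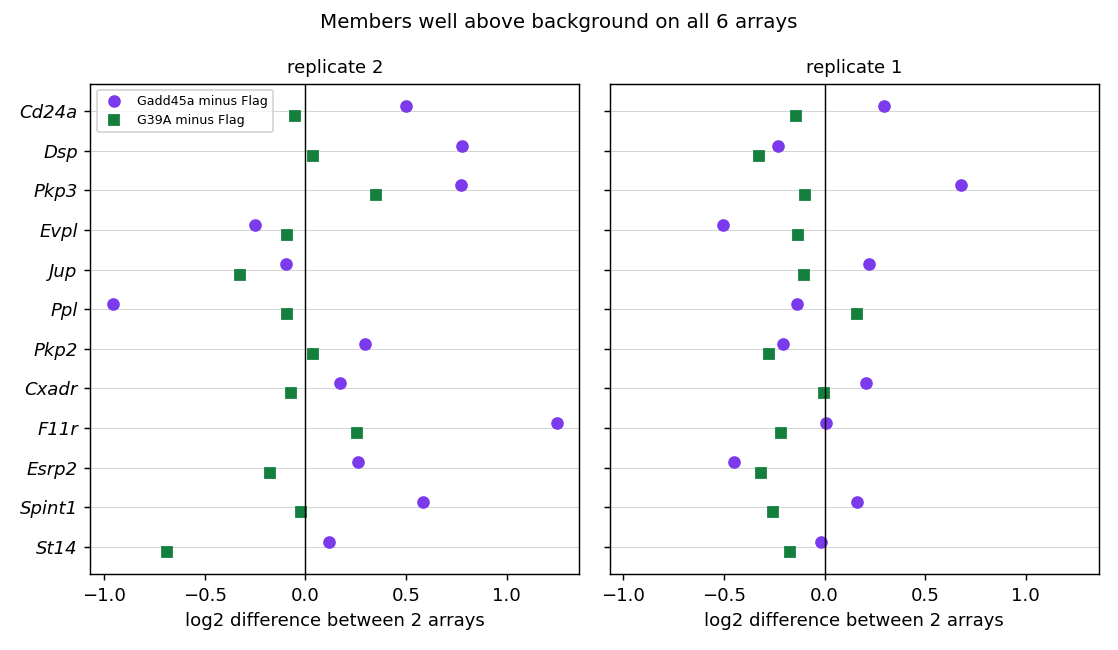
Log2 difference from the Flag array of the same replicate number for the 12 genes well above background on all 6 arrays, for Gadd45a (circles) and G39A (squares). Each point is a difference between 2 single arrays. In replicate 2 F11r reaches 1.25 for Gadd45a, and Pkp3 and Cd24a lie above 0 for Gadd45a in both panels.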

How the data were processed

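Gene expression was measured on 6 Agilent 1-colour arrays, and the 37 genes with a probe and the further gene lists were chosen with earlier results of these data known. Per the file headers, the deposited processed intensity of each spot was made with Agilent Feature Extraction (version 10.7 in the submitters' processing notes). Background subtraction and spatial detrending had been done inside each array, dim spots hold surrogate values, arrays were not normalized to each other, and probe coordinates are those of build mm9. The deposited 0 or 1 marks mark saturation (0 spots), outliers and spots well above background. The authors' deposited table holds log2 values. Each of its columns followed the log2 intensity of its own array (lowest r 0.9989), all medians were 6.16, and the sorted columns were within 0.0840 of each other, so it was quantile normalized, is not centred by gene and runs in the direction of the signal. The sources used here give no other step.

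Spots of a probe were averaged without control and outlier spots, and log2 intensity was taken relative to the 75th percentile of its array. Of 41174 probes, 41096 had a usable spot on every array. Names came from a RefSeq gene table (GRCm38.p6, names only) for 27668 probes by accession and 471 by synonym, and otherwise from the files. The brightest probe represents a gene. limma 3.58 in R 4.3 (lmFit and eBayes, two-sided) was run on all 41096 probes with Benjamini-Hochberg adjustment and a threshold of 0.05. The replicate comparison had the group as a covariate and 2 residual degrees of freedom, and the group comparisons had no covariate and 3. The scripts were tested on simulated data. Bounds set the bright arrays against, per dim array, the probe's own signal or, if higher, the lowest signal of any probe well above background.

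Every gene of the module with a probe is named. Values on every array are given for genes well above background on all 3 arrays of a replicate number. Genes outside it are defining markers or called genes of the lists, plus Gadd45a, Ctnnb1, Perp, Pkp4 and Krt7, and the other called or dim genes of the lists named in the text. The replicate numbers were taken to pair the arrays, because same-numbered arrays deviated together from the means of their groups (r 0.770 to 0.802, 3 pairs of groups) and the first principal component (72.3% of the variance) parted the numbers. Labels do not say what a number marks. The number of arrays limits the precision. Alternatives were the scaling, background correction, deposited values, a filter on dim probes, the mean of a gene's probes, an intensity trend, the group covariate, the slide, the replicate block and leaving out each array.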

Additional observations from a re-analysis of the deposited data

How the results depend on the processing

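The count of 25 genes lower in replicate 2 ranged from 23 to 25 under the alternatives that kept all arrays. Leaving out an array drops its pair too, since the group is a covariate, and then gave 18 (without a Flag array) to 23 genes lower and 1 gene higher, Cdh3, in each case. The count of 2 genes higher was also 1, Cdh3, with the mean of a gene's probes. Of the 27 called genes, 19 kept their call and direction in every alternative run. Ap1m2, Cldn3, Crb3, Dsc2, F11r, Grhl2, Pkp2 and Ppl lost it in at least 1, and outside the alternatives that leave out an array 24 kept it wherever they were tested. The filter on dim probes removed 3 called genes, Ap1m2, Crb3 and Grhl2. The median of -2.32 moved to -1.0 with normexp background and quantile normalization, -3.36 with the filter on dim probes, which left 25 of the genes, and -2.09 with the mean of a gene's probes. Without a Gadd45a array, Cldn4, dim throughout, was at 0.0287, against -0.19 with all arrays and -0.39 at the lowest without an array. Quantile normalization moved the median of all genes from -0.12 to 0.01. Calls over all genes were 7298, against 10789 with an intensity trend and 2193 to 4180 without an array. With the slide as a random block, added after seeing the data and run without the group covariate, because with it the correlation could not be estimated, 25 genes were lower and 2 higher. No slide held arrays of both replicate numbers, so this run cannot part a slide effect from the difference between the numbers. The group comparisons gave 0 calls in every alternative, the replicate block included. Signal over background limits what can be said of the 9 genes dim on all arrays and of every ratio printed as a bound, and with 2 arrays a group small differences between Gadd45a, G39A and Flag were not detectable. Without the replicate block, large differences could also be missed in genes that differed strongly between the replicate numbers.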
